A study of Mus musculus with 6 samples.

Results

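Stretch open chromatin clusters are places where many open regions that lie away from gene ends sit close together, and the 500 largest in control mouse β-cells are described here. They were chosen from the peak lists of 3 control libraries. Peaks were merged where they overlapped by at least 1 bp, and autosomal regions called in all 3 libraries and more than 1 kb from either end of every protein-coding gene span were kept. Kept regions less than 12500 bp apart were stitched into clusters, and the clusters were ranked by the bases under their kept regions. The rule gave 37377 clusters from 69852 kept regions, of which the first 500 are the members. The control values therefore chose the members, and the size, rank and control values of a member are a description with no test.

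The libraries are ATAC-seq libraries, which mark open DNA by where the transposase Tn5 can cut it and insert sequencing adapters. They were made from β-cells of dispersed islets, flow-sorted on the fluorescent marker Tomato. The genotype label is Control for 3 libraries and Chd4KO for the other 3. The series' design text names the knockout mice Chd4Db and says that control mice were treated with tamoxifen as the knockout mice were. Each library came from 27000 to 80000 sorted cells, of which 14000 to 45000 nuclei were tagmented. The sources used here do not give the Cre driver, the age of the mice or the alleles of the control mice. The labels do not say that libraries came from separate animals, so p-values measure only the spread between these libraries, which may be technical.

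In many tissues, long clusters of distal open chromatin, known as stretch or super-enhancers when they also carry active histone marks, lie at genes that the cell type depends on. In β-cells such clusters are known around transcription factors of the islet, such as Pax6 and Nkx6-1, and around genes for insulin processing and release. ATAC-seq alone shows that DNA is open and not whether it acts as an enhancer. Chd4 is an ATP-driven helicase and the motor of NuRD, a complex that moves nucleosomes and removes histone acetylation, and the series asks what its loss does to open chromatin in mature β-cells.

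The members held 29 microRNA hairpins of 919 on the autosomes, and 3 sets are printed because they are microRNAs known in islets or the nervous system that lie in a member between or beside genes. Mature sequences are from RefSeq (GRCm38.p6), written 5′ to 3′, with the seed (bases 2 to 8) in capitals. The first 2 share a seed and lie in the member of rank 11 on the plus strand, at chr15:85706616-85706637 and chr15:85707325-85707346. The miR-7a form comes from the hairpin Mir7-2 at chr7:78888295-78888317 (plus strand) in the member of rank 407, and miR-129-5p from Mir129-2 at chr2:94241419-94241439 (minus strand) in the member of rank 148.
let-7c-5p: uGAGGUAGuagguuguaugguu
let-7b-5p: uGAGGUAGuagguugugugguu
miR-7a-5p: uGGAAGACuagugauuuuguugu
miR-129-5p: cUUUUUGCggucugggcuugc

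The distal regions themselves could not be printed, since no genome sequence was used here. Of the 277 RefSeq promoter windows inside members (250 bases before to 50 after a gene's start), 117 lay under a peak over their whole length in all 6 libraries, and 65 had no peak base in any. A pair of them, chosen after their values were seen, is shown because both were under peaks over their whole length in all 6 libraries yet differ in composition. Pcsk2 encodes the prohormone convertase PC2, which cleaves proinsulin, and its promoter lies in the member of rank 13. Prlr encodes the prolactin receptor, through which β-cells respond to lactogenic hormones in pregnancy, and the RefSeq start lies within the annotated gene span, in the member of rank 470. Each run below is the 250 bases before the start on the plus strand, at chr2:143545883-143546132 for Pcsk2 and chr15:10223656-10223905 for Prlr (GRCm38.p6). Capitals mark matches to TGTTTAC, a forkhead (FOXA) motif, and CAGATG, an E-box bound by NEUROD1, each searched on both strands.
Pcsk2: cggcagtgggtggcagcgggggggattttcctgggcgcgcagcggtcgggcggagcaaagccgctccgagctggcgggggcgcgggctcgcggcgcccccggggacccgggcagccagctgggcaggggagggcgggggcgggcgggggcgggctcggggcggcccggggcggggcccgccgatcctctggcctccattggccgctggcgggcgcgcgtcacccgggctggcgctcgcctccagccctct
Prlr: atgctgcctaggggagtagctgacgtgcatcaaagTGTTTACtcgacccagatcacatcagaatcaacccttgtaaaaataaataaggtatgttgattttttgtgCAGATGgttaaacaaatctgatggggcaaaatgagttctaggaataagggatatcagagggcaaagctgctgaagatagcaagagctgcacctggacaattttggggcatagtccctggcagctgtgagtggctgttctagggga

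The Pcsk2 run was 82.4% G and C with 35 CpG pairs and held neither motif, while the Prlr run was 44.8% G and C with 2 CpG pairs and held both, the first starting at base 36 and the second at base 106. The whole windows of members held TGTTTAC in 2.53% of cases and CAGATG in 12.6%, against 3.04% and 14.6% of all 20085 windows. The homeodomain motif TAATTA was in 2.53% of member windows and 4.48% of all. A match is a string of letters and not a measured binding site.

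Peaks at β-cell marker genes, counted over the gene span and 1 kb on either side, were present in all 6 libraries at all the markers examined: Ins1, Ins2, Pdx1, Nkx6-1, Mafa, Ucn3, Slc2a2, Iapp, G6pc2 and Slc30a8. At Ins2 the covered length, the number of bases under peaks, was 1860, 2461 and 1540 bp in control libraries 1 to 3 and 1465, 1535 and 1384 bp in Chd4KO libraries 1 to 3. No library had a peak at Gcg, Ppy, Cpa1 or Cdh5, which mark α-, γ-, acinar and endothelial cells. Most genes of their lists did have peaks. Genes with no peak in any library were 1 of 12 for α-cells and 1 of 10 for δ-, γ- and ε-cells. They were 6 of 14 for acinar and 2 of 14 for endothelial cells. The α-cell list summed to 21.9 to 26.1 kb of covered length in control and 24.2 to 28.2 kb in Chd4KO libraries. Other markers of foreign cell types, such as Pecam1 and Ptprc, did have peaks in every library. Several of these moved with genotype. Over 106 genes of 8 lists of other cell types, the summed covered length was 90.8 to 104.7 kb in control and 111.8 to 118.2 kb in Chd4KO libraries, and 25 genes had no peak in any library. Every Chd4KO library lay above every control library at 28 of the 106 and below at 9, in unscaled bases, beside 19.9% and 8.86% of all autosomal genes. At Pdgfrb, a pericyte marker, the values were 631, 493 and 541 bp in control and 1671, 1400 and 1667 bp in Chd4KO libraries. The mesenchymal list, which holds it, summed to 11.2 to 13 kb and 16.6 to 17.2 kb. The muscle list summed to 8.59 to 9.32 kb and 12.7 to 14.2 kb, and the acinar list to 5.288 to 6.995 kb and 7.154 to 8.625 kb. The endothelial list summed to 17.9 to 20.5 kb and 21.3 to 22.2 kb, with 5 of its 14 genes above and 3 below. The groups overlapped for leukocytes (4.875 to 7.395 and 6.653 to 7.654 kb) and hepatocytes (9.307 to 10.72 and 9.733 to 11.83 kb). They also overlapped for δ-, γ- and ε-cells (12.3 to 14.73 and 13.19 to 14.86 kb), and for α-cells as given above. The 10 β-cell markers summed to 19.4 to 21.6 kb in control and 18.4 to 20.6 kb in Chd4KO libraries. Of the 10, 1 lay above (G6pc2) and 4 below (Ins1, Ins2, Nkx6-1 and Iapp), beside the same 19.9% and 8.86% of all autosomal genes. Ins1 had 1703, 1836 and 1784 bp in control and 823, 1302 and 1275 bp in Chd4KO libraries. Nkx6-1 had 1547, 1459 and 1355 bp in control and 1130, 1132 and 1016 bp in Chd4KO libraries. At Chd4 itself the covered length was 2454, 2372 and 2303 bp in control and 2309, 2891 and 2298 bp in Chd4KO libraries, so the groups overlapped, and peaks do not check the deletion. The autosomal lists held 97560 to 107777 peaks in control and 115678 to 120923 in Chd4KO libraries, covering 56.6 to 62.2 Mb and 63.97 to 67.4 Mb. The depth in reads is unknown, and the number of peaks called moves with it.

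The members were long strings of ordinary open regions. A member held a median of 10 kept regions (lowest 6, highest 39) over a median span of 53792 bp (25551 to 244909 bp), with 6847 bases under kept regions (5640 to 27841). Across all clusters the median was 1 region and 851 bases, and 60.4% of clusters were a single region. The 500 members held 5425 kept regions, which is 7.77% of the kept regions and 8.51% of the kept bases. Neighbouring regions of a member lay a median of 5053 bp apart. The threshold fell in a smooth part of the curve, where ranks 499 and 500 had 5648 and 5640 bases and ranks 501 and 502 had 5638 and 5635.

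**Figure D1:**
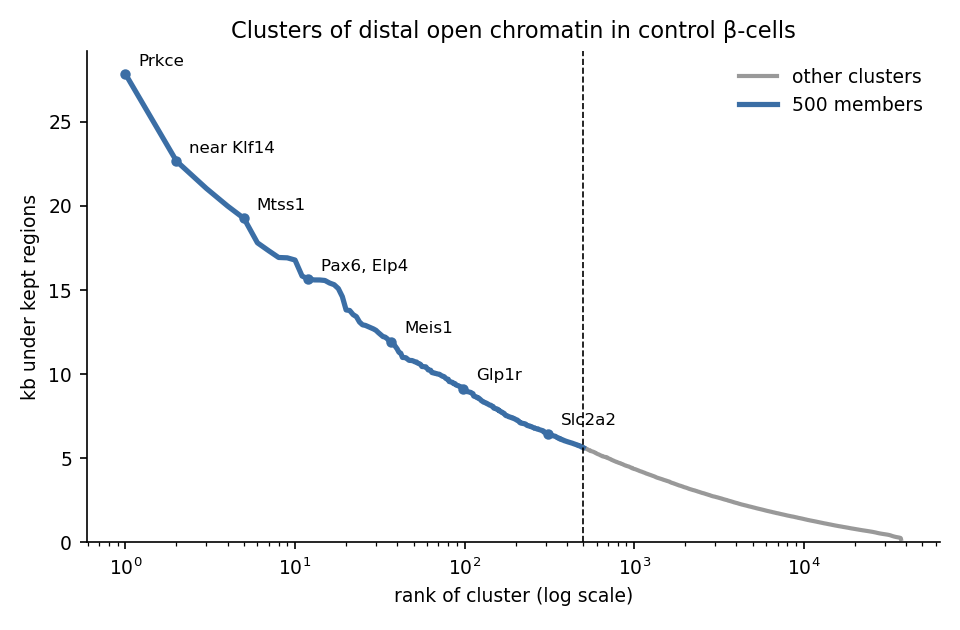
Kilobases under kept regions (vertical axis) of every control cluster against its rank (horizontal axis, log scale), with the 500 members in blue and other clusters in grey; named points are members over or nearest to the gene given. The curve falls from 27841 bases at Prkce to 5640 at rank 500 without a step at the dashed line that marks the last member.

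No single region made up most of a typical member. The widest region held a median of 17.3% of a member's bases, and its median width was 1278 bp (765 to 2974 bp). Only 14 members held a region of at least 2 kb, while 432 held one of at least 1 kb. Peak strength was used by neither the ranking nor the stitching. For it, each region's −log10 q was turned into a percentile within each control library and averaged over the 3. The median was 54.8 for kept regions in members and 52.8 for the other kept regions. Within width classes the medians were 34.4 and 35.4 (under 500 bp), 60.3 and 61.1 (500 to under 1000 bp), and 76.1 and 75.0 (1000 bp or wider). Of the 500 kept regions with the highest percentile, 34 lay in members, in 31 of them, which is 6.8% beside the 7.77% of all kept regions that members held.

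Most members lay within long genes. A single gene span contained 274 members (54.8%), 168 were partly over genes (33.6%) and 58 lay between genes (11.6%). Of the kept regions in members, 77.6% were inside a gene span, against 55.3% of the other kept regions. A gene start fell in 171 members and 53 contained at least 1 whole gene. Members overlapped 489 of 20665 autosomal protein-coding genes, a background of 2.37%. This share followed gene length: it was 0.532% of genes under 20 kb, 2.60% of genes of 20 to 100 kb and 10.4% of genes of 100 kb or longer. Several long genes held more than one member. Ankrd44, Gse1, Maml3 and Tns3 held 3 each, and 16 others held 2, among them Pcsk2 (ranks 13 and 276), Prkce (1 and 399) and Ptprn2 (384 and 415).

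The largest member lay wholly within Prkce, which encodes the diacylglycerol-activated kinase PKCε. Its span was chr17:86251989-86496897 (mm10), with 39 kept regions and 27841 bases under them. Bases under peaks over the whole span were 24539, 23905 and 23991 in control libraries 1 to 3 and 23372, 25557 and 22052 in Chd4KO libraries 1 to 3. The control libraries lay close together, and the Chd4KO values lay on both sides of them. Of the 39 regions, 33 were called in all 3 Chd4KO libraries and 1 in none of them.

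The second member lay in no protein-coding gene at all. It spanned chr6:31070277-31233927 with 34 kept regions, overlapped the long noncoding RNA Lncpint and had Klf14, a Krüppel-like transcription factor gene, as the nearest protein-coding gene at 111287 bp. Bases under peaks were 21288, 20702 and 19520 in control and 22028, 21749 and 21052 in Chd4KO libraries. The groups overlapped by a narrow margin, with 31 of 34 regions called in all 3 Chd4KO libraries and none missing from all of them. The cluster was first in rank when the same rule was applied to regions called in all 6 libraries.

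Ranks 3 to 10 lay in or partly over genes. Rank 3 lay over Prkag2 (chr5:24930887-25123244, 33 regions), which encodes a regulatory subunit of the energy sensor AMPK, and 24 of its regions were called in all 3 Chd4KO libraries. Rank 4 lay in Farp1 (chr14:121099859-121265647, 28 regions), rank 5 over Mtss1 (chr15:58966774-59092929, 25 regions) and rank 6 over Gtf2e2 and Rbpms (chr8:33766099-33917230, 27 regions). Farp1 and Mtss1 proteins act on actin and the cell membrane, and Rbpms is an RNA-binding protein. Ranks 7 and 8 lay in Arhgap26 and Sipa1l3, whose products act on small GTPases, with 26 and 22 regions. Rank 9 lay in Gse1 (chr8:120471157-120575351, 26 regions) and rank 10 over Zmiz1 (chr14:25451512-25594450, 23 regions), a transcriptional coactivator. At Zmiz1 the bases under peaks were 15874, 16780 and 16139 in control and 18744, 19412 and 16864 in Chd4KO libraries. It was one of 48 members at which every Chd4KO library lay above every control library, in unscaled bases.

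Rank 11 was the member that holds the let-7 hairpins printed above. It spanned chr15:85598896-85716548 between genes, 17075 bp from the nearest protein-coding gene Wnt7b, which encodes a secreted Wnt ligand, and held 18 kept regions, the widest of 2531 bp. Bases under peaks were 13612, 13739 and 15712 in control and 15231, 16977 and 14201 in Chd4KO libraries, so the groups overlapped. The let-7c-2 and let-7b hairpins lay in a gap of the cluster, 2340 and 1634 bp from the nearest kept region, and no library had a peak base within 1 kb of either.

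Rank 12 joined Pax6 to Elp4. Pax6 is a paired-box transcription factor required for islet hormone cells, and the introns of its neighbour Elp4, a subunit of Elongator, are known to hold long-range Pax6 enhancers. The member spanned chr2:105647970-105749938 and held the whole Pax6 span. Of its 21 kept regions, 7 lay between genes on the far side of Pax6, 7 within Pax6 and 7 within Elp4. The widest, 1792 bp at chr2:105686878-105688669 within Pax6, had 1460, 1792 and 1713 bases under peaks in control and 1020, 1423 and 1444 in Chd4KO libraries. Over the whole member the values were 14920, 16077 and 15154 in control and 15625, 15413 and 15421 in Chd4KO libraries, and the Chd4KO values lay within the control range. All 7 regions in Elp4 had a peak in each of the 6 libraries.

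**Figure D2:**
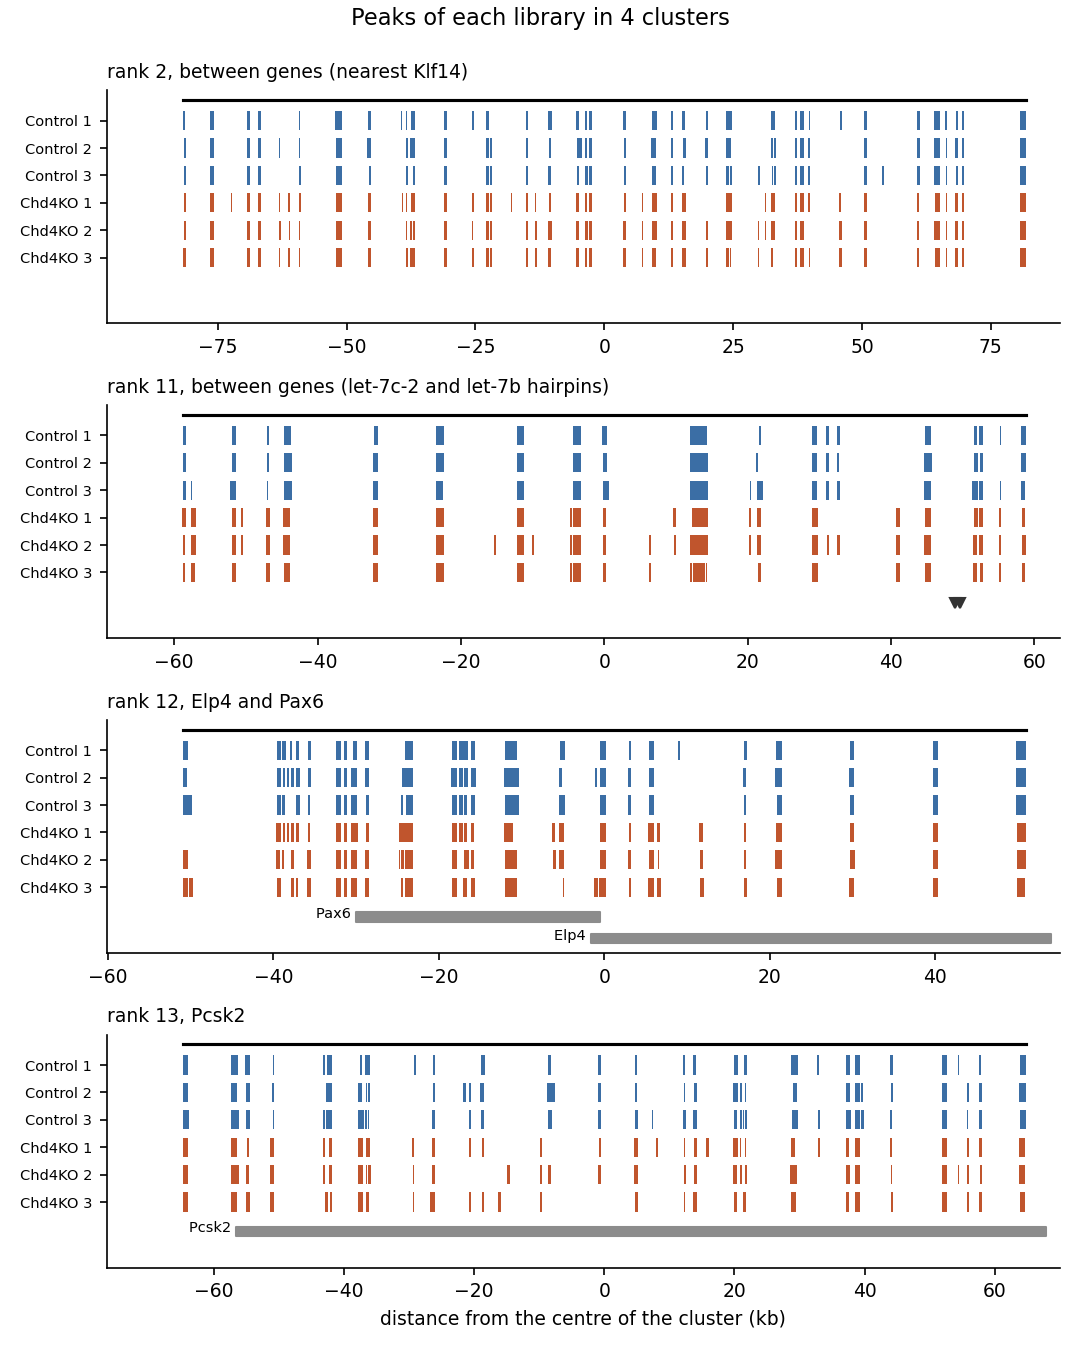
Peaks of each library (rows, blue for Control and orange for Chd4KO) along 4 members, with distance from the centre of the member in kb on the horizontal axis; the black line is the span of the member, grey bars are gene spans (cut at the edge of the plot) and triangles are the let-7 hairpins. The same strings of peaks recur in all rows, with 31 of 34, 16 of 18, 18 of 21 and 19 of 22 kept regions called in all 3 Chd4KO libraries at ranks 2, 11, 12 and 13.

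Of the longer genes of β-cell identity and insulin release, a larger share overlapped a member than of all genes of that length. Of 94 autosomal genes in 3 lists (β-cell transcription factors, insulin secretion and maturity), 22 overlapped a member, which is 23.4% beside the background of 2.37%. The count was 11 with stitching at 5 kb and 9 with the 50000 strongest peaks of a library. The lists were written with earlier results of these data known, and no test was made of the difference. By length, 0 of 35 list genes under 20 kb, 10 of 33 of 20 to 100 kb (30.3%) and 12 of 26 of 100 kb or longer (46.2%) overlapped a member. Ins1, Ins2, Pdx1 and Mafa are among the short genes that overlapped none.

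Among the transcription factors, 6 of 35 genes overlapped a member, and Pax6, St18, Meis1, Meis2 and Tshz1 are described here. Meis1 and Meis2 are homeodomain cofactors, and St18 is a zinc finger factor of endocrine cells. Nkx6-1 and Foxa2 were the nearest protein-coding gene to a member without overlapping it, at 55144 and 42531 bp. Nkx6-1 is a homeodomain factor that keeps β-cell identity, and Foxa2 is a forkhead factor that opens chromatin in endoderm.

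The insulin secretion list had 15 of 50 genes in members. They cover glucose entry (Slc2a2), the ATP-sensitive potassium channel (Abcc8), voltage-gated calcium channels (Cacna1a, Cacna1c, Cacna1d, Cacnb2), the GLP-1 receptor and its cAMP effector (Glp1r, Rapgef4), exocytosis (Syt7, Rab27a) and the making of granules and hormone (Pcsk2, Cpe, Scg3, Ptprn2, Ero1b). Of the maturity markers, 4 of 16 were in members: Slc2a2, Glp1r, Ero1b and Prlr, of which all but Prlr also stand in the secretion list.

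**Figure D3:**
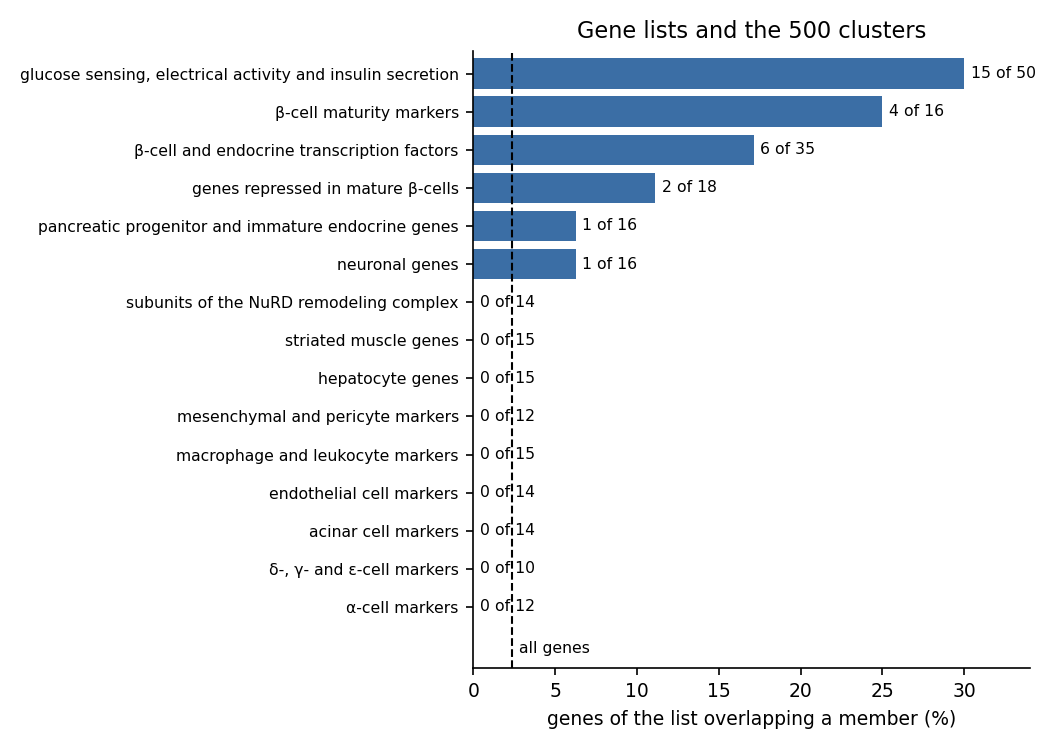
Percent of the autosomal genes of each of 15 lists whose span overlaps a member (bars, with counts), and the same over all 20665 autosomal protein-coding genes (dashed line, 2.37%). The 3 β-cell lists stand at 17.1%, 25% and 30.0%, and 9 lists have no gene in a member.

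Lists of other cell types had few genes in members, beside a background of 2.37% of all autosomal genes and 0.532% of those under 20 kb. The median gene length of the 8 lists given first ran from 6.89 to 44.6 kb, and no test was made of their counts. Markers of α-cells, of δ-, γ- and ε-cells, and of acinar, endothelial, blood and mesenchymal cells, and genes of hepatocytes and muscle, had 0 of 106 genes in members, of which 13 are 100 kb or longer. The neuronal list had 1 of 16 (Map2) and the progenitor list 1 of 16 (Hes1). The list written for genes repressed in mature β-cells had 2 of 18 (Dnmt3a and Zfp36l1, 11.1%), also above the background, and subunits of NuRD 0 of 14. Whether the listed genes are repressed in these cells was not examined. Markers of other cell types had peaks in these libraries, as given above for Pecam1 and Ptprc, and their part in the members was not tested.

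Pcsk2 held the members of ranks 13 and 276. Rank 13 (chr2:143537916-143667509, 22 regions) covers the start of the gene and had 14550, 15255 and 16362 bases under peaks in control and 14479, 15090 and 14320 in Chd4KO libraries. These groups overlapped, and 19 of 22 regions were called in all 3 Chd4KO libraries. Rank 276 (chr2:143753514-143807312, 10 regions) lies further along the gene and had 5087, 6600 and 5060 bases in control and 5129, 3884 and 3289 in Chd4KO libraries. These groups overlapped too, at Chd4KO library 1. There 6 of 10 regions were called in all 3 Chd4KO libraries, and the 453 bp region at chr2:143790000-143790452 had no peak in any of them.

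The receptor and vesicle genes showed both patterns. At Glp1r (rank 98, chr17:30877228-30945914, 14 regions) the values were 8607, 9151 and 8069 bases in control and 8131, 8211 and 8243 in Chd4KO libraries, which lie inside the control range. At Rapgef4 (rank 145, 13 regions) they were 8036, 7676 and 7624 in control and 8281, 8515 and 8402 in Chd4KO libraries, with no overlap. Rab27a encodes a small GTPase that tethers insulin granules. At its member (rank 193, chr9:73050583-73104099, 10 regions) the control values were 7001, 7024 and 7093 bases and the Chd4KO values 5151, 6274 and 5345. All Chd4KO libraries lay below all control libraries there, and the control libraries stood close together.

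Calcium channel and exocytosis genes also differed among themselves. Cacna1a (rank 222, 9 regions), a pore subunit of voltage-gated calcium channels, had 7651, 7962 and 6819 bases in control and 6231, 7165 and 6027 in Chd4KO libraries, which overlap. Syt7 (rank 270, 11 regions), a calcium sensor of exocytosis, had 7162, 7422 and 6711 in control and 7421, 8426 and 7877 in Chd4KO libraries, also with overlap. Cpe (rank 274, 10 regions), the carboxypeptidase that trims insulin, had 6952, 7144 and 6269 in control and 6832, 6936 and 6485 in Chd4KO libraries. Every region at Syt7 and at Cpe was called in all 3 Chd4KO libraries.

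At the transcription factor members the strings of regions were mostly kept. Meis1 (rank 37, chr11:18900291-19010850) had all of its 15 regions called in all 3 Chd4KO libraries, with 9932, 11957 and 11457 bases in control and 11126, 11894 and 12348 in Chd4KO libraries. Meis2 (rank 90, 12 regions) had 9207, 9927 and 9279 in control and 9621, 9965 and 9588 in Chd4KO libraries. Tshz1 (rank 70, 14 regions), a zinc finger homeobox gene, had 12126, 11899 and 10147 in control and 11287, 10877 and 11408 in Chd4KO libraries. St18 (rank 202, 8 regions) had 5664, 6679 and 6715 in control and 4931, 6288 and 5305 in Chd4KO libraries. The groups overlapped at all 4 of these genes.

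The members nearest to Foxa2 and Nkx6-1 stood apart from one another. On the Foxa2 side (rank 241, chr2:147951142-148000346) all 8 regions were called in all 3 Chd4KO libraries, with 6111, 6873 and 6250 bases in control and 6578, 7269 and 6733 in Chd4KO libraries. On the Nkx6-1 side (rank 272, chr5:101558288-101604040, 10 regions) the control values were 6516, 6162 and 6338 bases and the Chd4KO values 5355, 5383 and 5061. All Chd4KO libraries lay below all control libraries near Nkx6-1, by more than the spread within either group, and 1 region was called in no Chd4KO library.

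The microRNA members held peaks near the hairpins to different degrees. The miR-129 hairpins of rank 148 (chr2:94241236-94291036) lay under a kept region of 978 bp, with 698, 915 and 845 bases under peaks in control and 673, 688 and 683 in Chd4KO libraries. The member as a whole had 6994, 7219 and 7393 bases in control and 8790, 8971 and 8571 in Chd4KO libraries, with no overlap. Mir7-2 of rank 407 (chr7:78863722-78904139) lay 1128 bp from the nearest kept region. Within 1 kb of it, control library 2 had 403 bases under peaks and control libraries 1 and 3 had none, while Chd4KO libraries 1 to 3 had 505, 527 and 493.

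The members held a smaller part of the open chromatin of Chd4KO libraries than of the control libraries that chose them. They held 6.51%, 6.07% and 6.36% of autosomal peak bases in control libraries 1 to 3 and 5.58%, 5.60% and 5.45% in Chd4KO libraries 1 to 3. In bases the values were 3.68, 3.78 and 3.61 Mb in control and 3.67, 3.77 and 3.49 Mb in Chd4KO libraries, so nearly the same length was open in both genotypes within the members while the lists as a whole were longer in Chd4KO. Peaks in the members numbered 6203, 6312 and 6167 in control and 6394, 6508 and 6218 in Chd4KO libraries. All these values are a description, since the control libraries chose the clusters.

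Single members spread around that picture. The ratio of Chd4KO to control mean bases, unscaled, ran from 0.658 to 1.302 with a median of 0.985, and the coefficient of variation within a genotype had a median of 4.69% in control and 5.77% in Chd4KO. At 72 members every Chd4KO library lay below every control library, at 48 every one lay above, and at 380 the groups overlapped. Over all 37377 control clusters these patterns made up 21.7% (below) and 9.31% (above). The rule used the control side of this contrast, so nothing is read from the difference. The lowest ratio was at rank 288 in Ahcyl2, where bases under peaks were 5317, 6058 and 4904 in control and 3897, 4280 and 2530 in Chd4KO libraries. The highest was at rank 187 in Mical3, with 7527, 6812 and 6897 in control and 9206, 9232 and 9214 in Chd4KO libraries. These extremes were picked by their values and carry no test.

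Most member regions were also called in the Chd4KO libraries, which the rule did not use. Chd4KO libraries 1 to 3 had a peak at 92.1%, 93.4% and 90.7% of the 5425 member regions and at 90.4%, 90.9% and 89.4% of the 64427 other kept regions. All 3 had one at 87.8% of member regions and 85.4% of the others, and none had one at 4.0% and 5.57%. Wide regions were retained most: of member regions of 1000 bp or wider, 98.8%, 99.4% and 98.5% were called in Chd4KO libraries 1 to 3, while of those under 500 bp 81.5%, 83.9% and 79.4% were. At 153 members every region was called in all 3 Chd4KO libraries, and no member had under 54.5% of its regions so called.

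Regions that changed their call between genotypes were spread over the members. Over the whole genome 15755 autosomal regions were called in all 3 Chd4KO and no control library (gained), and 4043 in all 3 control and no Chd4KO library (lost). Members held 363 gained regions (2.30%) and 220 lost regions (5.44%), beside 6.64% of the 73402 regions called in all 6 libraries. At least 1 gained region lay in 248 members, at least 1 lost region in 168, both in 92 and neither in 176. No member had more than 3 lost or 5 gained regions. A lost region must be open in all control libraries and a gained one in none, so the rule bears on these counts.

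The same rule applied to the 3 Chd4KO libraries found many of the same places. Of the 500 members, 325 (65.0%) overlapped one of the first 500 Chd4KO clusters, and 324 of those (64.8%) overlapped a member. Members of high rank recurred more often, with 93 of the first 100 and 36 of the last 100. The other 175 members all overlapped a Chd4KO cluster of lower rank, so none was without a counterpart. Of the first 500 Chd4KO clusters, 176 overlapped no member.

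To test the genotypes without letting the control libraries alone choose the places, clusters were rebuilt from regions called in all 6 libraries. The gene-end rule, stitching and ranking were the same. The 15755 gained and 4043 lost regions could not build such a cluster but count in the library totals. Those totals were 56.6 to 62.2 Mb in control and 63.97 to 67.4 Mb in Chd4KO libraries. A percent of peak bases and a scaled covered length fall as the total rises. The part of this in the differences below was not tested. Of the members, 387 (77.4%) overlapped one of the first 500 of these all-library clusters. Those 500 held 5.18% ± 0.05 of peak bases in Chd4KO and 5.68% ± 0.22 in control libraries (SD, n = 3), without overlap (p = 0.1 in an exact two-sided permutation test, the smallest p that 3 against 3 allows). They held 3.40 ± 0.12 Mb under peaks in Chd4KO and 3.32 ± 0.07 Mb in control libraries, with overlap (two-sided exact permutation p = 0.4). Peaks in them numbered 5781 ± 85 in Chd4KO and 5453 ± 51 in control libraries (two-sided exact permutation p = 0.1). That difference changed its direction, to -149 peaks, when only the 50000 strongest peaks of each library were used. The median peak width was 542 ± 9.0 bp in Chd4KO and 548 ± 8.2 bp in control libraries, a difference within the spread between libraries (two-sided exact permutation p = 0.6). Markers of other cell types summed to 111.8 to 118.2 kb in Chd4KO and 90.8 to 104.7 kb in control libraries, as given above, and their part in these values was not tested.

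**Figure D4:**
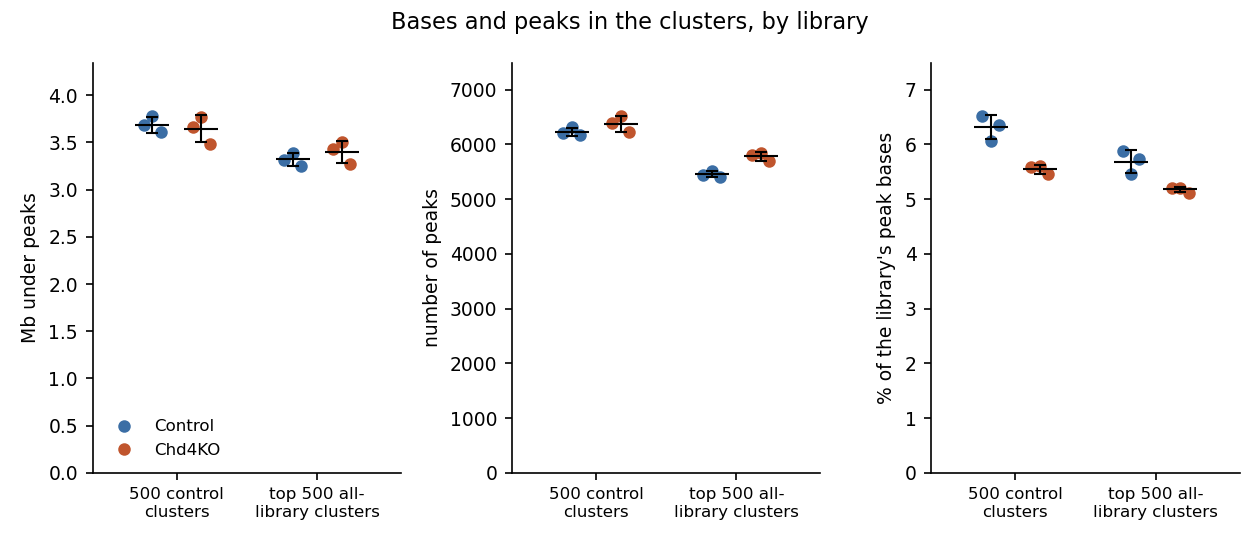
Megabases under peaks, number of peaks and percent of a library's peak bases inside the 500 members and the first 500 all-library clusters; points are libraries (blue Control, orange Chd4KO) and bars are mean ± SD (n = 3). In both sets the Mb overlap between genotypes while the percent of peak bases is lower in all Chd4KO libraries, 5.45% to 5.60% against 6.07% to 6.51% in the members.

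Cluster by cluster, the covered length relative to the library total was lower in Chd4KO at more large clusters than it was higher. Covered length was scaled to the mean library total and tested with limma on log2(covered length + 300 bp) over 33204 all-library clusters with Benjamini-Hochberg adjustment. Of the first 500, 90 were lower (18.0%, against a background of 8.91%) and 1 was higher (0.2%, against 3.43%). Of the 12072 clusters of 2 or more regions below the first 500, 11.9% were lower and 2.38% higher. Of the 20632 clusters of 1 region, 6.93% were lower and 4.12% higher. In a fit of only the 4169 clusters with a mean of at least 2000 bp, 24.9% were lower, and 31.6% of the first 500. A larger share of lower calls was thus not particular to the first 500. The median log2 fold change was -0.13 over the 500 and -0.10 over all clusters tested, so the 500 as a group moved little more than the rest. The standard error of a log2 fold change had a median of 0.06 for the 500 and 0.09 for clusters of 1 region, and its part in the counts was not tested. The scaling itself moved the median of all clusters by -0.12 on the log2 scale. With no scaling, 20 of the 500 were higher and 4 lower (backgrounds of 6.16% and 2.17%), and the median was 0.04. The 90 lower clusters all kept a negative sign with no scaling, and 4 of them passed the threshold. They were chosen by their scaled values in the same libraries, so the kept sign is no separate support. Leaving out 1 library gave 22 lower clusters without control library 1, 108 without control library 2, 10 without control library 3, and 12, 25 and 23 without Chd4KO libraries 1, 2 and 3. The 1 higher call was lost in all but the second of these.

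**Figure D5:**
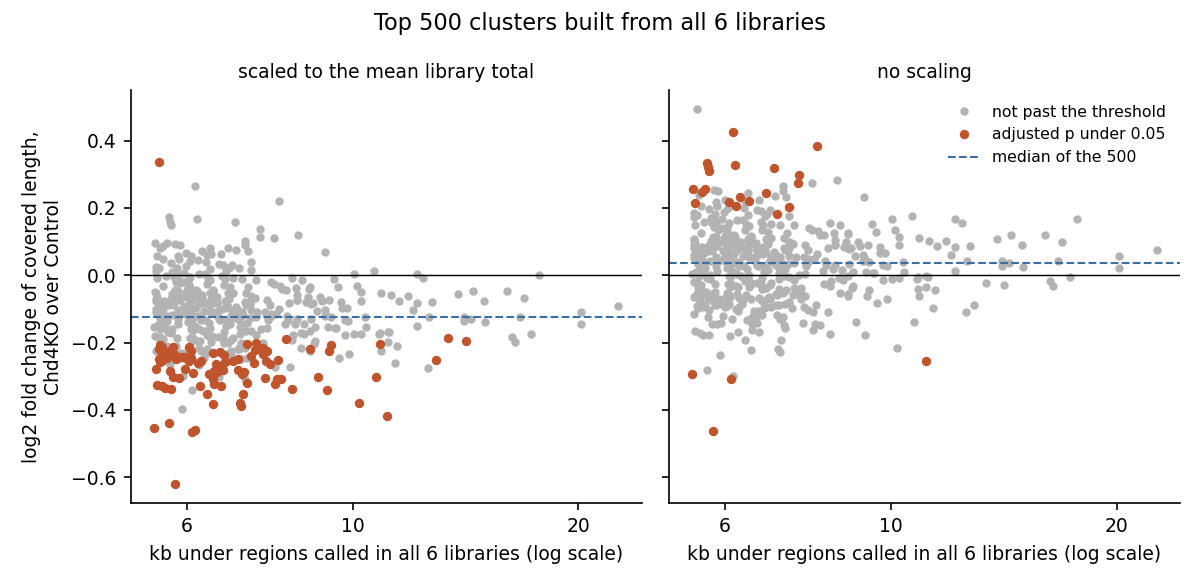
Log2 fold change of covered length, Chd4KO over Control (vertical axis), against kilobases under regions called in all 6 libraries (horizontal axis, log scale) for the first 500 all-library clusters, with scaling to the mean library total (left) and with no scaling (right). Orange points pass an adjusted p under 0.05 in limma, 90 lower and 1 higher on the left and 4 lower and 20 higher on the right; the dashed line is the median of the 500, -0.13 and 0.04.

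The largest fall was in Fry, which encodes a scaffold protein of the NDR kinase pathway. The all-library cluster at chr5:150185265-150233700, which is also the member of rank 485, had 5470, 5387 and 4753 bases in control and 3747, 3257 and 4109 in Chd4KO libraries before scaling. Its log2 fold change was -0.62 ± 0.10 (SE; limma, adjusted p = 0.012), and it was -0.46 with no scaling (limma, adjusted p = 0.034). At Snd1, a nuclease and coactivator gene, the cluster at chr6:28485978-28573647 had 9819, 10855 and 9973 bases in control and 8245, 8898 and 8376 in Chd4KO libraries. The log2 fold change was -0.42 ± 0.05 (limma, adjusted p = 0.0056) and -0.26 with no scaling (limma, adjusted p = 0.043). It was the largest of the 6 by bases and overlaps the member of rank 27.

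The other 4 of the 6 largest falls were in Lurap1l, next to Spdye4c, in Epb41l4a and at Lbx1. At Lurap1l (member of rank 395) the unscaled bases were 5387, 5604 and 5054 in control and 4469, 3953 and 4376 in Chd4KO libraries, and the scaled log2 fold change was -0.47 ± 0.07 (limma, adjusted p = 0.01). Epb41l4a (rank 416) encodes a band 4.1 family protein and had 5475, 5237 and 5708 bases in control and 4380, 4462 and 4393 in Chd4KO libraries, and changed by -0.45 ± 0.07 on the log2 scale (limma, adjusted p = 0.012). These clusters and Fry and Snd1 passed the threshold with no scaling too. The cluster 7983 bp from Spdye4c (rank 259) changed by -0.46 ± 0.07 (limma, adjusted p = 0.012) and did not pass with no scaling (adjusted p = 0.079). Lbx1, a homeobox gene of muscle and spinal cord precursors, had 5489, 4874 and 5423 bases in control and 4693, 4760 and 3494 in Chd4KO libraries. Its log2 fold change was -0.44 ± 0.12 (limma, adjusted p = 0.047), and the call was lost without control library 1 or 3 or without any one of the Chd4KO libraries. With the 50000 strongest peaks, the log2 fold changes next to Spdye4c and at Lbx1 were 0.21 and 0.02, and those at Lurap1l, Epb41l4a and Snd1 were -1.51, -0.42 and -0.18 and did not pass (limma, adjusted p = 0.12, 0.18 and 0.054). Stitching at 5 kb ended the calls at Lurap1l, next to Spdye4c, at Epb41l4a and at Lbx1 (limma, adjusted p = 0.18, 0.079, 0.067 and 0.076).

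The only rise past the threshold in the first 500 was in a cluster between genes. It lay at chr10:84450554-84488844, 9886 bp from Nuak1, which encodes a kinase related to AMPK, and overlapped no member. Bases under peaks were 3344, 4426 and 3247 in control and 5224, 5736 and 4809 in Chd4KO libraries, and the log2 fold change was 0.34 ± 0.09 (limma, adjusted p = 0.044). With no scaling it was 0.49 (limma, adjusted p = 0.061), and the call was also lost without any one library other than control library 2.

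The members at β-cell genes and the first 12 members were not among the called clusters. Of these 26 members, 22 overlapped one of the first 500 all-library clusters, and 0 passed the threshold (limma, adjusted p from 0.05 to 0.98), while 10 had an unadjusted p under 0.05. Their scaled log2 fold changes ran from -0.23 to 0.08, below 0 at 19 of 22, and with no scaling from -0.06 to 0.24, above 0 at 14. The nearest to a call was the Glp1r cluster at -0.18 ± 0.05 (limma, adjusted p = 0.05, not under the threshold before rounding), which was -0.03 with no scaling. The Rapgef4 cluster stood at 0.08 ± 0.07 (limma, adjusted p = 0.39) and passed only with no scaling, at 0.24 (adjusted p = 0.039). The Pax6 and Elp4 cluster stood at -0.13 ± 0.05 (limma, adjusted p = 0.1) and the cluster on the Nkx6-1 side at -0.22 ± 0.07 (limma, adjusted p = 0.075). The 4 without such a cluster, at Rab27a, St18, Cacna1a and the second Pcsk2 member, overlapped all-library clusters of rank 2591, 1328, 537 and 4253. They are given without a p because values were taken only from the first 500. That ranking needs regions called in all 6 libraries, so a member with regions not called in Chd4KO libraries falls in it. The 0 thus does not cover these 4. At Rab27a every Chd4KO library lay below every control library, while the groups overlapped at St18, Cacna1a and the second Pcsk2 member.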

How the data were processed

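ATAC-seq peak lists of 3 Control and 3 Chd4KO β-cell libraries were used, 1 narrow peak list per library, in mm10 per the submitters' processing notes. The peak names in the deposited files point to MACS2; the sources used here do not give its settings, an aligner or filters on reads. Each deposited list gives, per peak, a −log10 p, a −log10 q, a fold enrichment (ratio) and a score of 10 times the −log10 q. Being the authors' values, they served only for ranks within a list. Without reads, depth is unknown.

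Gene spans came from RefSeq (GRCm38.p6), without strand or exons. A gene was counted where its span overlapped a member by at least 1 bp. Bases under peaks were counted over the whole span of a cluster, peaks at gene ends included. All-library clusters were tested in R 4.3.3 with limma 3.58.1 (trend) for those with a mean covered length of at least 300 bp; the script was tested on simulated data. Fold changes are on the log2(covered length + 300 bp) scale, which understates changes of small clusters. The members and gene lists were chosen with earlier results of these data known. Clusters were named by rule: the first 12 members, up to 15 of highest rank over or nearest to a gene of the 3 β-cell lists, and the 6 largest rises and falls of the first 500 all-library clusters past the threshold (1 rise passed); other clusters given are named as chosen by their values or for a printed sequence. Alternatives changed the stitching distance, the calling rule, the gene-end rule, the scaling, the pseudocount, the filter and the libraries used. Some genes and lists are not reported here.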

Additional observations from a re-analysis of the deposited data

How the results depend on the processing

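Depth is unknown, and covered length moves with how many peaks were called. Of the 500 members, 176 were shared with the list stitched at 5 kb, 320 at 25 kb, 290 with no regions left out at gene ends and 208 where only the 50000 strongest peaks per library were used. The members' mean percent of control peak bases was 2.44% at 5 kb, 12.7% at 25 kb, 7.07% with regions called in at least 2 control libraries, 5.92% with regions within 2.5 kb of a gene end left out, 8.05% with none left out, 5.02% with the 50000 strongest peaks and 6.47% to 6.61% without 1 control library. β-cell list genes in members numbered 11 at 5 kb and 9 with the 50000 strongest peaks, genes of 8 other lists 3 at 25 kb and 5 with no gene-end rule, and all genes 963 and 1382 there. Using the 50000 strongest peaks, differences in peaks and in median width were -149 peaks and 2.83 bp (exact permutation p = 0.1 and 0.6). Over all clusters, higher and lower calls numbered 2044 and 721 with no scaling, 88 and 1037 at a minimum of 2000 bp, 1817 and 890 with libraries centred on the median cluster (an alternative chosen after seeing the data), 1726 and 1898 with the 50000 strongest peaks, and 421 to 1001 and 823 to 2667 without 1 library. In the first 500 they numbered 20 and 4, 3 and 158, 14 and 8, 26 and 61, and 0 to 1 and 10 to 108 under the same settings in the same order, with 3 higher at 25 kb. Of the 90 lower clusters, 71 kept a negative sign with the 50000 strongest peaks and 90 under each other setting that used the same clusters. The same libraries chose them by their values, so a kept sign is no separate support.

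Same-numbered libraries had correlations of deviations of 0.095, 0.146 and -0.033, so the numbers were not taken to pair the samples; libraries did not all correlate best with their own number. With the replicate block, 642 clusters were higher and 1486 lower, and in the first 500 1 and 29; Lbx1 had an adjusted p of 0.074 (limma).

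Fold changes of named clusters turned sign as follows, and the cause was not tested beyond the shift that scaling itself makes. With no scaling and centred on the median, the log2 values were 0.08 and 0.05 next to Klf14, 0.11 and 0.08 at Farp1, 0.06 and 0.03 at Mtss1, 0.12 and 0.09 at Rbpms, 0.10 and 0.07 at Arhgap26, 0.06 and 0.04 at Sipa1l3, 0.03 and 0.01 at Pax6, 0.09 and 0.06 at Meis1, 0.05 and 0.02 at Meis2, 0.10 and 0.07 next to Foxa2, and 0.15 and 0.12 at Syt7. With the 50000 strongest peaks they were 0.19 at Farp1, 0.06 at Mtss1, 0.31 at Rbpms (limma, adjusted p = 0.012), 0.04 at Arhgap26, -0.47 next to Wnt7b, 0.10 at Pcsk2, 0.31 at Meis1, 0.54 at Glp1r, 0.12 next to Foxa2, 0.21 at Syt7, 0.21 next to Spdye4c and 0.02 at Lbx1. At 5 kb they were 0.11 at Prkce, -0.16 next to Wnt7b, -0.09 at Rapgef4 and 0.11 at Syt7, and at 25 kb -0.04 at Zmiz1, -0.03 next to Wnt7b, -0.02 at Rapgef4 and 0.03 at Syt7. Without 1 library the ranges were -0.07 to 0.01 at Rbpms, -0.02 to 0.04 at Zmiz1, -0.07 to 0.10 next to Wnt7b and -0.04 to 0.03 at Syt7. Of all values of named clusters, 367 kept direction and side of the threshold, 26 lost a call and 20 gained one.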

Other observations

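Values of 4 further members are given here; they were chosen after their values were seen and carry no test. Zfp36l1, an RNA decay factor gene, is in the list written for genes repressed in mature β-cells, and its repression here was not examined. It lies in the member of rank 239. That member had 6217, 6361 and 6311 bases under peaks in control libraries 1 to 3 and 7771, 7787 and 7380 in Chd4KO libraries 1 to 3. Hes1, a Notch target and repressor gene of pancreatic progenitors, lies in the member of rank 183, with 9164, 9187 and 9138 bases in control and 10015, 9996 and 9936 in Chd4KO libraries, and all of its 11 regions were called in all 3 Chd4KO libraries. At Ero1b, an oxidase of the endoplasmic reticulum that helps insulin to fold, the member of rank 325 had 7883, 6544 and 7437 bases in control and 5050, 4771 and 5937 in Chd4KO libraries, and 7 of its 12 regions were called in all 3 Chd4KO libraries. At Itpr1, the gene of a calcium release channel, the member of rank 209 had 6002, 6465 and 6313 bases in control and 4602, 4026 and 4631 in Chd4KO libraries. The groups did not overlap at any of these 4, in unscaled bases. Among all members, every Chd4KO library lay below every control library at 72 and above at 48, while the groups overlapped at 380. Over all control clusters the shares were 21.7% below and 9.31% above. Values of other members at genes of the same lists, such as Dnmt3a, Slc2a2 and Abcc8, are not given here. No pattern of a gene list is therefore read from these 4.

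By the same rule, the Chd4KO libraries gave large clusters at places that did not reach the first 500 in control. The Chd4KO libraries had 85280 kept regions against 69852 in control, and the smallest of their first 500 clusters had 6361 bases against 5640. The part of this in the clusters named here was not tested. The highest was over Zfp710 and Idh2, at rank 12 of the Chd4KO clusters with 31 regions and 18481 bases under them. The best control cluster there had rank 506, just past the threshold. The next was in Mbnl2, which encodes a splicing regulator, at rank 23 with 26 regions, where the best control cluster had rank 731.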
